A study of Mus musculus with 19 samples.

Results

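The nuclear genes for the subunits of oxidative phosphorylation were examined in epididymal white adipose tissue (eWAT) of male mice that differed in dietary fat and dietary Mg2+. The members were the protein-coding genes whose symbols name a subunit of complex I (Nduf), complex II (Sdh), complex III (Uqcr and Cyc1), complex IV (Cox4 to Cox8) or complex V (Atp5), without the brown fat and muscle isoforms Cox8b and Cox7a1. This gave 82 genes of 24237 listed entries, namely 36 genes for complex I, 4 for complex II, 9 for complex III, 16 for complex IV and 17 for complex V, which lie on 19 chromosomes. Of these, 76 passed the filter on low values and could be tested among 8336 entries. Both Ndufs3 and Uqcrc1 were listed on 2 rows with equal values, and the row of the primary assembly was used.

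C57Bl6/J mice aged 9 to 10 weeks received the diets for 17 weeks. The low-fat diet (LFD) gave 10% and the high-fat diet (HFD) 60% of energy as fat from palm oil, each with 0.21% (NormMg) or 0.03% (LowMg) magnesium oxide by weight. RNA-seq libraries were available from 4 NormMg-LFD, 5 LowMg-LFD, 5 NormMg-HFD and 5 LowMg-HFD mice, each a separate animal. The NormMg-LFD group is the control of the design, and the comparisons ask how fat at each Mg2+ content, and Mg2+ on each diet, relate to the RNA of the respiratory chain.

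Oxidative phosphorylation turns the energy of NADH and succinate into ATP in the inner mitochondrial membrane. Complexes I and II pass electrons to ubiquinone, complex III passes them to cytochrome c and complex IV to oxygen, and the proton gradient that complexes I, III and IV build drives the rotary ATP synthase, complex V. All subunits of complex II are encoded in the nucleus, whereas the other complexes combine nuclear subunits with some encoded in mitochondrial DNA. In white adipocytes, which hold few mitochondria compared with brown adipocytes, the chain supplies ATP for lipid synthesis and hormone secretion. The factors NRF1, GABP (an ETS factor), YY1 and the oestrogen-related receptors are known activators of many of these genes.

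The promoters of 4 members are shown because Ndufv3 was called both in a comparison of fat and, in every setting tried, in that of Mg2+ on the HFD, because Ndufa8 moved against most of its complex, and because Uqcr11 and Cox8a carry words that such factors bind. The sequences are from RefSeq (GRCm38.p6) and run 5′ to 3′ on the strand of the gene, from 250 bases before its start to 30 after it. Capitals mark exact matches to GCATGCGC (NRF1), CCGGAAGT (ETS/GABP), AAGATGGCG (YY1) or AAGGTCA (oestrogen-related receptors) on either strand. Ndufv3 lies on the plus strand at chr17:31519865-31520144, Ndufa8 on the minus strand at chr2:36049309-36049588, Uqcr11 on the minus strand at chr10:80406792-80407071 and Cox8a on the minus strand at chr19:7217587-7217866.
Ndufv3: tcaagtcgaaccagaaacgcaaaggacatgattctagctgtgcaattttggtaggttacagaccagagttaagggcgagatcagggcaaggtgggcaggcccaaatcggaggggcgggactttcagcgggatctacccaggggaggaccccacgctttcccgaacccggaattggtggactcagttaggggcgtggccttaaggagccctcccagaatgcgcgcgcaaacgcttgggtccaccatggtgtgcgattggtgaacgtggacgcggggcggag
Ndufa8: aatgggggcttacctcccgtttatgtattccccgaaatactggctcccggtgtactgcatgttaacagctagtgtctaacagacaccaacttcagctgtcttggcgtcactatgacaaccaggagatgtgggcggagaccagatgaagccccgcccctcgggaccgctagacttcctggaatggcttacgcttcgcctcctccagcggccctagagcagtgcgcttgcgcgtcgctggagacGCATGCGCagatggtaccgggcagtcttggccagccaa
Uqcr11: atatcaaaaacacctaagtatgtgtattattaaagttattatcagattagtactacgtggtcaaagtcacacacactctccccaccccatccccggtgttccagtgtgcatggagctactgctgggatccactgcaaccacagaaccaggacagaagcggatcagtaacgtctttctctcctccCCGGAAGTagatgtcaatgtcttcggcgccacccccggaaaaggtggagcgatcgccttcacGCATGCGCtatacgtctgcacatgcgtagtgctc
Cox8a: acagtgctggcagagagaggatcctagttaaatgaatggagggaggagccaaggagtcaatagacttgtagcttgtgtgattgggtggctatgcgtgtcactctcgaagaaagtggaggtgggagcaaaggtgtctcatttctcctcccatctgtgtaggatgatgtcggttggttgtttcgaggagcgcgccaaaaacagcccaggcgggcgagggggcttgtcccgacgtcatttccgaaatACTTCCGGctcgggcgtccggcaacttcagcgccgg

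In Ndufa8 the NRF1 word began 8 bases before the start. The Uqcr11 window held the NRF1 word 4 bases before the start and the ETS/GABP word 66 bases before it. In Cox8a the ETS/GABP word stood on the opposite strand, 6 bases before the start, and the 280 bases of Ndufv3 held none of the 4 words. Promoters of 64 of the 82 members were found by symbol, 5 of them with more than 1 start, and at least 1 of the words was in the 300-base window (to 50 bases after the start) of 27 (42.2%), compared with 13.5% of 27025 genes with a promoter. The NRF1 word was in 15.6% of the members' promoters against 3.05% of all, the ETS/GABP word in 7.81% against 4.31%, the YY1 word in 10.9% against 1.64%, and the receptor word in 12.5% against 5.38%. Of the matched members called lower in a comparison of fat 9 of 30 (30%) held a word, and of the other tested ones 18 of 32 (56.2%). A matching word is a description of these letters and not a bound site.

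Levels are given in fragments per kilobase of transcript, scaled to the library (FPKM), which allow genes to be compared per length. The complexes were expressed at high and unequal levels. Over all 19 mice, the catalytic beta subunit of ATP synthase, Atp5b, had the highest mean of all members (815 FPKM), and Cox8a, a small subunit of complex IV, came next (564 FPKM). The highest means were 250.2 FPKM for Ndufa4 among the complex I genes, 185 FPKM for the membrane anchor Sdhc in complex II and 231 FPKM for the ubiquinone-binding subunit Uqcrq in complex III. By name Ndufa4 counts here in complex I, although the protein is now known to belong to complex IV. The lowest tested means were 15.1 FPKM for Ndufa11 in complex I, 93.2 FPKM for the membrane anchor Sdhd, 64.5 FPKM for the core protein gene Uqcrc1, 98.3 FPKM for Cox7a2l in complex IV and 11.3 FPKM for Atp5sl. Despite its symbol Atp5sl is not a structural part of ATP synthase but is linked to complex I assembly.

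The members varied less between mice of a group than all genes tested did, without matching for level, on which this spread can depend. The median within-group SD of log2(FPKM + 1) was 0.127 over the members and 0.216 over all genes tested. Their deviations from the group means also moved together across the 19 mice: the median correlation between pairs of members was 0.26, compared with 0.05 between pairs of all genes. Pairs within complex II (0.58) and complex III (0.39) had higher medians than pairs within complex I (0.23), IV (0.30) and V (0.16), but over all complexes the median was 0.24 for pairs of the same complex and 0.27 for pairs of different ones. All of these correlations share the same libraries and their scaling, and genes are not independent replicates. LowMg-LFD replicate 1 was the highest mouse of its group for 55 of the 76 members, and no correlation without it is given.

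In the fit of all mice, fat at normal Mg2+ gave the largest number of called members, which did not hold in every setting. In the limma fit over all 8336 entries (adjusted p under 0.05 after Benjamini-Hochberg adjustment), 31 of 76 members were lower and 3 higher in NormMg-HFD than in NormMg-LFD mice, against 12.8% of all entries called lower and 24.6% called higher. The median log2 difference of the members was -0.19, a median level 12.4% lower, whereas that of all entries was 0.07. Lower values were found in all 5 complexes: 17 of 36 genes of complex I, 2 of 4 of complex II, 5 of 9 of complex III, 3 of 11 of complex IV and 4 of 16 of complex V were called lower. The complex medians were -0.26, -0.25, -0.25, -0.14 and -0.12 in that order. For 28 members every NormMg-HFD mouse was below every NormMg-LFD mouse, against 10.6% of all entries, and for 1 member every NormMg-HFD mouse was above, against 21.5%.

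The mean log2(FPKM + 1) over the genes of each complex shows the same in single mice. For complex I it was 6.40 ± 0.06 (SD, n = 4) in NormMg-LFD, 6.45 ± 0.09 (SD, n = 5) in LowMg-LFD, 6.15 ± 0.05 (SD, n = 5) in NormMg-HFD and 6.24 ± 0.07 (SD, n = 5) in LowMg-HFD. Even the highest HFD mouse (6.32) was below the lowest LFD mouse (6.35). For complex III the means were 7.05 ± 0.11, 7.16 ± 0.12, 6.83 ± 0.04 and 6.89 ± 0.09 in the same order, and at each Mg2+ content the HFD and LFD mice did not overlap. For complex II the NormMg groups did not overlap, but LowMg-HFD replicate 3 (7.06) was above the lowest LowMg-LFD mouse (7.03). In complex IV the NormMg groups overlapped between 7.75 and 7.76, and in complex V the LowMg groups overlapped between 7.02 and 7.04.

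**Figure D1:**
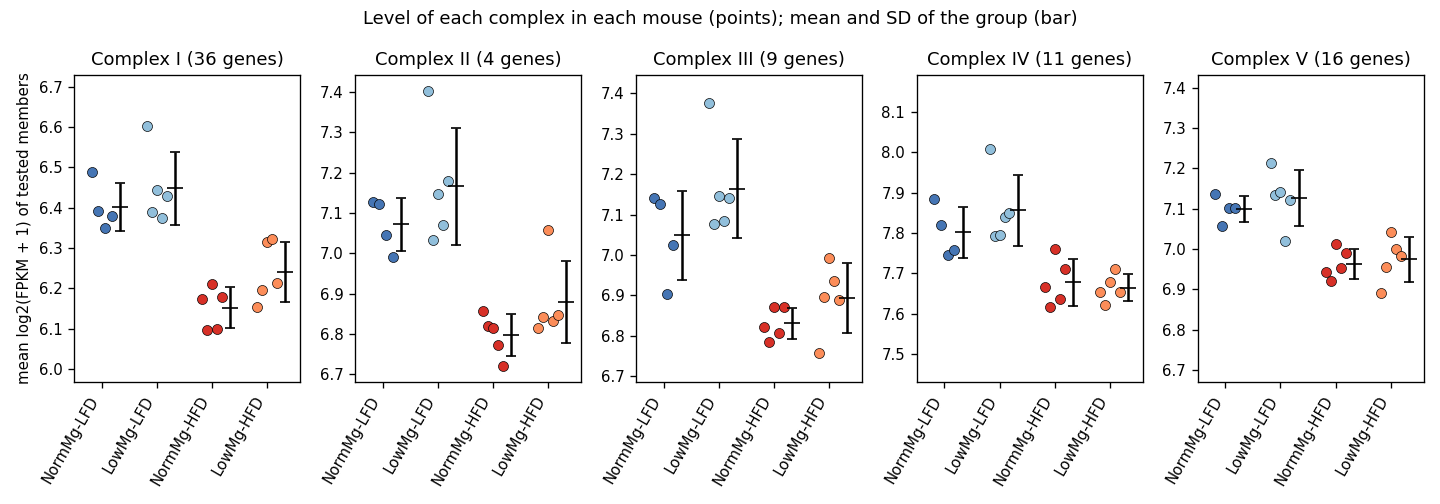
Mean log2(FPKM + 1) over the tested genes of complexes I to V (y axis, log2 scale, each panel spanning the same range) in each mouse (points) of the 4 diet groups (x axis), with the group mean and SD beside them. The HFD mice lie below the LFD mice in complex I, and LowMg-LFD replicate 1 is the highest point of all 5 panels.

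Among the complex I genes that fell, the largest decrease was that of Ndufa5, a supernumerary subunit of the arm that protrudes into the matrix. It was 82.5, 87.5, 82.6 and 87.5 FPKM in the NormMg-LFD mice and 52.2, 46.2, 55.2, 43.8 and 69.7 FPKM in the NormMg-HFD mice. The groups did not overlap, and the difference was -0.68 (SE 0.12, adjusted p = 0.000167) on the log2 scale. Next came Ndufb8, a subunit of the membrane arm (-0.61, SE 0.11, adjusted p = 0.000239), and the accessory subunit Ndufa10 (-0.56, SE 0.15, adjusted p = 0.00525). Ndufv1, the core subunit that binds flavin and takes electrons from NADH, fell by 0.53 on the log2 scale (SE 0.10, adjusted p = 0.000516). Ndufv3, a small subunit of the same NADH-oxidising module, had the lowest adjusted p of all members in this comparison (-0.50, SE 0.08, adjusted p = 4.04e-05).

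Complex I has 7 nuclear core subunits, among them those that carry the flavin and the iron-sulphur clusters, and the other 29 genes are counted here as supernumerary, Ndufa4 by its name among them. This grouping was chosen after the values were seen. Of the core genes 4 were lower at normal Mg2+, among them Ndufv1 and Ndufs7, and of the supernumerary genes 13 (with Ndufa4) were lower and 2 higher. Ndufs7, whose cluster hands the electrons to ubiquinone, fell by 0.46 on the log2 scale. The medians of both groups were -0.27 and -0.23.

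In complex II, Sdha, the flavoprotein that oxidises succinate, was 172, 172, 158 and 152 FPKM in NormMg-LFD and 124, 130, 108, 120 and 112 FPKM in NormMg-HFD mice. There was no overlap, and it fell by 0.46 on the log2 scale (SE 0.09, adjusted p = 0.000715). The iron-sulphur subunit Sdhb fell by 0.33 (SE 0.09, adjusted p = 0.00869). The membrane anchors Sdhc and Sdhd were not called.

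In complex III, the core protein gene Uqcrc2 fell most: 104, 113, 87.1 and 92.8 FPKM in NormMg-LFD mice became 77.5, 81.3, 71.2, 68.5 and 68.1 FPKM in NormMg-HFD mice. Its difference was -0.43 (SE 0.11, adjusted p = 0.00536), with no overlap of the groups. The redox subunits also fell, with -0.28 for Cyc1 (cytochrome c1) and -0.25 for Uqcrfs1 (the Rieske iron-sulphur protein). The small subunits Uqcr11 (-0.29) and Uqcr10 (-0.26) were called lower too.

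In complex IV, Cox8a was 644, 643, 518 and 659 FPKM in NormMg-LFD and 431, 452, 475, 472 and 514 FPKM in NormMg-HFD mice. It fell by 0.39 (SE 0.09, adjusted p = 0.00235), and the lowest NormMg-LFD mouse was just above the highest NormMg-HFD mouse. Cox6c (-0.31) and Cox4i1 (-0.26), subunits that are present in most tissues, were also lower. In complex V, the gamma subunit of the central stalk, Atp5c1, fell by 0.42 (SE 0.08, adjusted p = 0.000538): it was 260, 233, 212 and 227 FPKM in NormMg-LFD and 181, 180, 179, 168 and 162 FPKM in NormMg-HFD mice, without overlap. Atp5b fell by 0.30, Atp5h, a peripheral stalk subunit, by 0.23 and Atp5sl by 0.43 on the log2 scale, the last with an adjusted p of 0.0442 and lost in 10 of 30 other settings.

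**Figure D2:**
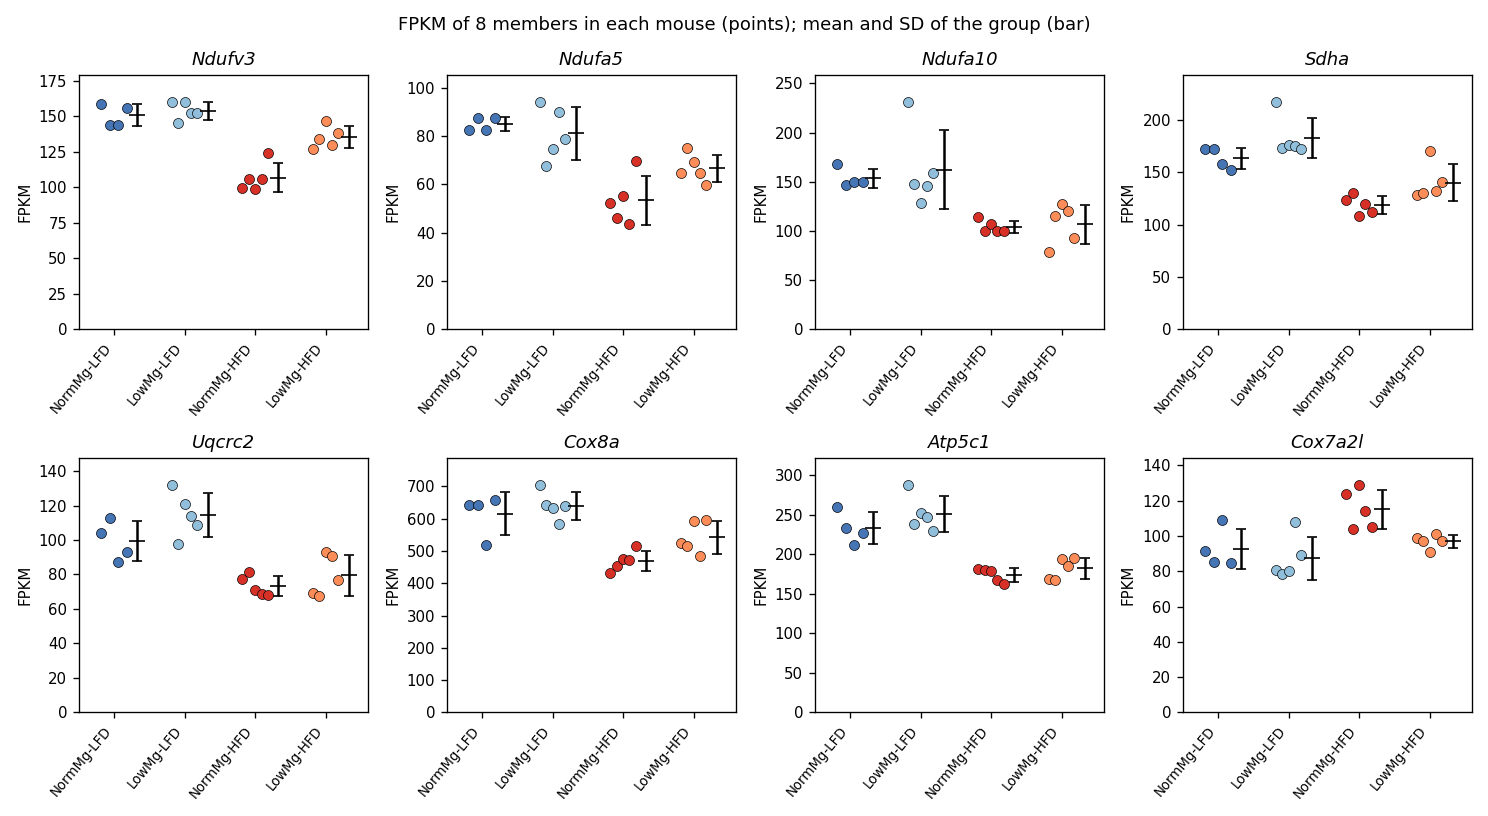
FPKM (y axis, from 0) of 8 members in each mouse (points) of the 4 groups (x axis), with the group mean and SD beside them. In 7 of the 8 genes all NormMg-HFD mice lie below the NormMg-LFD mice, and Cox7a2l has the opposite order of means.

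The 3 members that rose were Ndufa8 and Ndufb3 of complex I and Cox7a2l of complex IV. Cox7a2l, also known as SCAF1, is not a regular subunit but links complexes III and IV in supercomplexes. It was 91.4, 85.0, 109 and 84.5 FPKM in NormMg-LFD and 124, 104, 129, 114 and 105 FPKM in NormMg-HFD mice (0.32, SE 0.10, adjusted p = 0.0190). The groups overlapped in the NormMg-LFD mouse at 109 FPKM. Its relative Cox7a2, the regular subunit, was 121 ± 5.90 FPKM (SD, n = 4) in NormMg-LFD and 110 ± 5.71 FPKM (SD, n = 5) in NormMg-HFD mice and was not called (-0.14, 95% confidence interval -0.30 to 0.01). Ndufa8 (0.26, adjusted p = 0.00851) and Ndufb3 (0.25, adjusted p = 0.0124) changed less. None of the 3 was called when each mouse was centred on the median of its tested genes or after quantile normalization, under which 42 and 57 members were called lower. The centring moved the median of all genes by 0.10 and split the calls over all entries into 1580 higher and 1572 lower, in place of 2048 and 1066. Quantile normalization split them into 1499 higher and 1696 lower.

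Cox7a2l also lost its call when NormMg-HFD replicate 3, NormMg-LFD replicate 3 or NormMg-LFD replicate 5 was left out. In these bulk samples, fewer cells of a type and less RNA per cell cannot be told apart. The summed level of 12 adipocyte markers was 21490 to 28820 FPKM in NormMg-LFD and 16060 to 21420 FPKM in NormMg-HFD mice, and that of 12 macrophage markers on 13 rows (Itgam on 2) was 534 to 668 and 1966 to 3045 FPKM. All of these markers were detected, and their part in the differences of the members was not tested.

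Fat at low Mg2+ was compared in different mice. In LowMg-HFD compared with LowMg-LFD mice 26 members were called lower and 0 higher by limma (46 members had an unadjusted p under 0.05, 45 of them lower), against 3.51% of all entries called lower and 12.4% called higher. The median log2 difference of the members was -0.21, whereas it was 0.10 over all entries. By complex, 10, 3, 4, 5 and 4 genes of complexes I to V were lower, and the medians were -0.21, -0.31, -0.25, -0.23 and -0.16. For 25 members the LowMg-HFD mice were all below the LowMg-LFD mice, against 2.3% of all entries, and for Ndufb3 alone they were all above, against 6.99%. At low Mg2+ Ndufb3 was not called (0.21, adjusted p = 0.0510).

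Complex I was led by Ndufa10 (-0.59, SE 0.14, adjusted p = 0.00699) and Ndufa12 (-0.47, SE 0.08, adjusted p = 0.00093), followed by Ndufb8 (-0.42), Ndufb9 (-0.39) and Ndufa6 (-0.38), all accessory subunits. In complex II Sdhb (-0.39), Sdha (-0.38) and the anchor Sdhd (-0.24) fell. In complex III Uqcrc2 was 132, 97.9, 121, 114 and 109 FPKM in LowMg-LFD and 69.0, 67.5, 92.8, 91 and 77.0 FPKM in LowMg-HFD mice. It fell by 0.53 (SE 0.11, adjusted p = 0.00283) with no overlap. Cyc1 (-0.37), Uqcrfs1 (-0.33) and Uqcr10 (-0.25) were also lower.

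The 5 called genes of complex IV were Cox7b (-0.32), Cox6c (-0.31), Cox5a (-0.30), Cox5b (-0.28) and Cox7c (-0.23), of which only Cox6c was also called at normal Mg2+. In complex V, 4 of the 5 genes of the F1 part, which holds the catalytic sites, were lower: Atp5c1 (-0.46), Atp5b (-0.34), the alpha subunit Atp5a1 (-0.24) and Atp5d (-0.21). None of the 11 tested genes outside F1 was called at low Mg2+ by limma, although 4 had an unadjusted p under 0.05, and this grouping was chosen after the values were seen. Ndufs1 and Sdhd lost their call in 20 of 30 other settings each, whereas Ndufa12, Uqcrc2 and Atp5c1 kept it in all 30.

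Between both comparisons of fat, which share no mice, 18 genes were called lower in each. These were 58.1% of the 31 genes lower at normal Mg2+ and 69.2% of the 26 lower at low Mg2+. Over all entries 245 (2.94%) were called lower in both, out of 1066 lower at normal and 293 lower at low Mg2+. They included genes of every complex, such as Ndufb8, Ndufa10, Ndufa12 and Ndufs7 in complex I, Sdha and Sdhb, Uqcrc2, Cyc1 and Uqcrfs1, Cox6c, and Atp5b and Atp5c1. The log2 difference was below 0 in both for 65 of 76 members. Over the 76 members the differences correlated with r = 0.68 (Spearman's rho = 0.63), a description across genes from 1 set of libraries. A gene called at 1 Mg2+ content and not at the other is not thereby shown to differ: no member was called for the interaction of Mg2+ and fat in limma (4 had an unadjusted p under 0.05), against 0.492% of all entries called higher and 0.756% called lower (41 and 63 entries). Those numbers over all entries varied widely: 0 were called with a replicate block, 139 and 208 after quantile normalization, 86 and 159 after centring, 10 and 2 as TPM, and 158 and 324 without LowMg-HFD replicate 2.

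The number at low Mg2+ rested in part on 1 mouse. LowMg-LFD replicate 1 had the highest level of 55 of the 76 members within its group and of 48 among all 19 mice, and 17 members were called lower without it (220 of all 8294 entries). Fitting only the LowMg groups gave 13 (180 of 7799 entries), and median centring gave 41. At low Mg2+ the centring moved the median of all genes by 0.11 and split the calls over all entries into 593 higher and 531 lower, in place of 1036 and 293. The adipocyte marker sum was 23950 to 33730 FPKM in LowMg-LFD and 20250 to 25270 FPKM in LowMg-HFD mice, and the macrophage sum was 399 to 767 and 653 to 1748 FPKM. Their part was not tested.

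**Figure D3:**
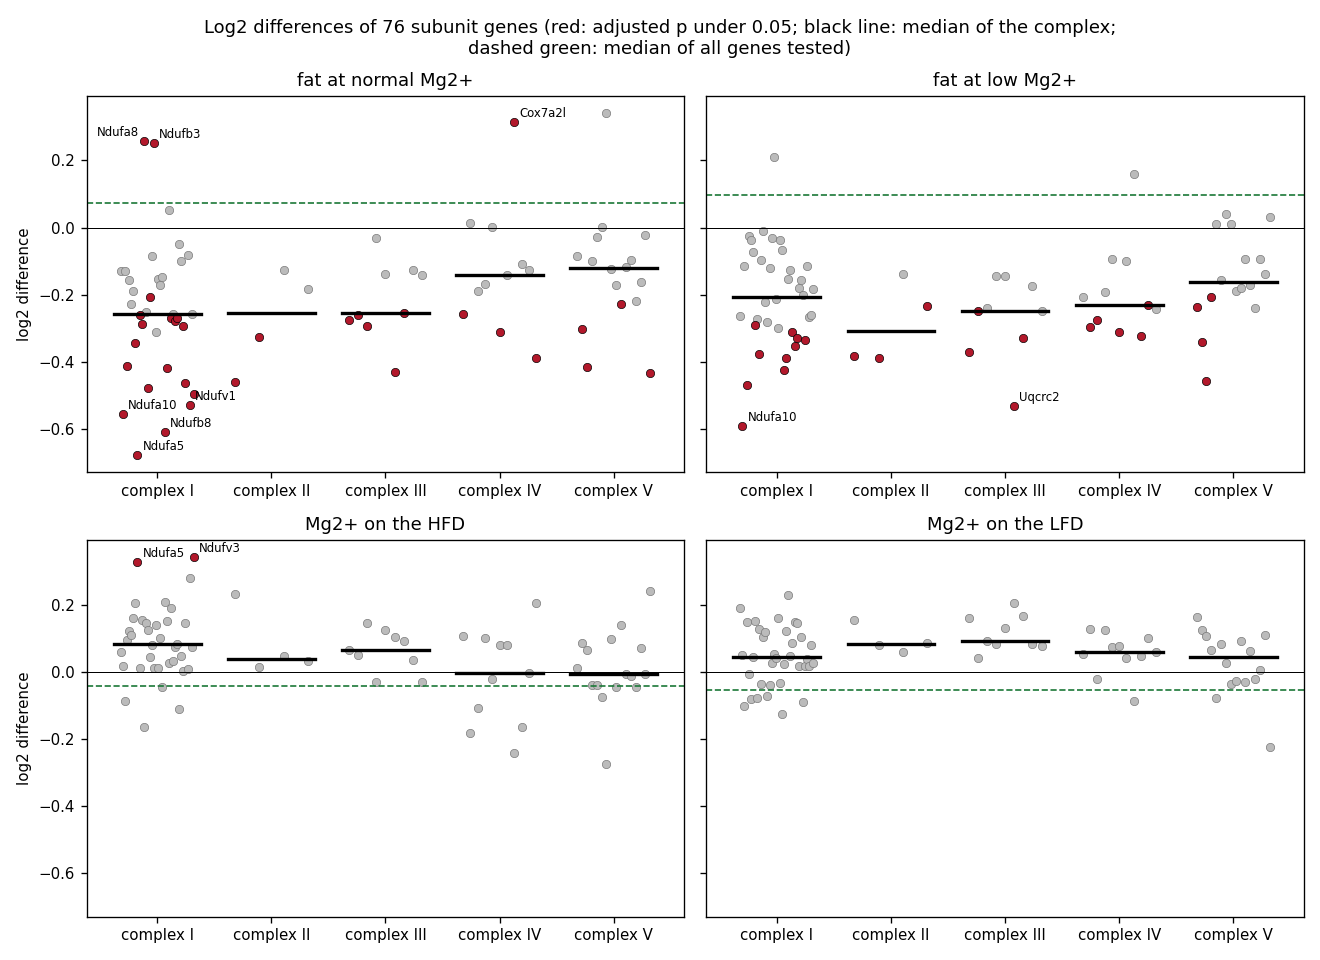
Log2 difference (y axis) of each of the 76 tested members (points), grouped by complex (x axis), in the 4 comparisons of 2 groups. Red points were called, black lines are the medians of the complexes and dashed lines the median of all genes tested. In both fat panels the 5 black lines lie below 0 and below the dashed line, and in the Mg2+ panels 2 points are red on the HFD and none on the LFD.

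Mg2+ on the HFD was followed by few called members. In LowMg-HFD compared with NormMg-HFD mice 2 members were called higher and 0 lower (8 and 2 had an unadjusted p under 0.05 in these directions), against 5.58% of all entries called higher and 12.9% called lower. The median log2 difference of the members was 0.06, and that of all entries was -0.04. Leaving out LowMg-HFD replicate 3 gave 0.04 and leaving out LowMg-HFD replicate 1 gave 0.10 for the members. With all mice it was 0.08 for complex I, where 32 of 36 genes were above 0, 0.04 for complex II, 0.07 for complex III and close to 0 for complexes IV (-0.004) and V (-0.0074), both of which turn positive when each mouse is centred, since that moves the median of all genes from -0.04 to 0.01. Centring split the calls over all entries into 649 higher and 849 lower, in place of 465 and 1077. The macrophage marker sum was 1966 to 3045 FPKM in NormMg-HFD and 653 to 1748 FPKM in LowMg-HFD mice, without overlap, and the adipocyte sum was 16060 to 21420 and 20250 to 25270 FPKM. Their part in the differences was not tested. NormMg-HFD mice are shared with the comparison of fat at normal Mg2+, so the 2 sets of differences are not independent.

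Ndufv3 was the clearest. It was 159, 144, 144 and 156 FPKM in NormMg-LFD, 160, 145, 160, 152 and 152 FPKM in LowMg-LFD, 99.7, 106, 98.6, 106 and 124 FPKM in NormMg-HFD, and 127, 134, 147, 130 and 138 FPKM in LowMg-HFD mice. All LowMg-HFD mice were above all NormMg-HFD mice and overlapped the LFD mice only at their highest value. The difference by Mg2+ on the HFD was 0.34 (SE 0.07, adjusted p = 0.00388), a level 1.27-fold higher, and the adjusted p ranged from 0.00155 to 0.0174 over the 30 other settings, in all of which it was called. Its interaction of Mg2+ and fat was 0.31 (adjusted p = 0.0953), the lowest adjusted p of the members for that test, and it was called only when NormMg-HFD replicate 5 was left out, and on the LFD its difference by Mg2+ was 0.03 (95% confidence interval -0.13 to 0.18).

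Ndufa5 was 64.7, 74.9, 69.2, 64.5 and 59.9 FPKM in LowMg-HFD mice, and 1 NormMg-HFD mouse (69.7 FPKM) lay within that range. It rose by 0.33 on the log2 scale (SE 0.11, adjusted p = 0.0464) and lost this call in 20 of 30 other settings, among them the omission of any single NormMg-LFD mouse, of LowMg-LFD replicate 5, or of replicate 1, 2, 3 or 4 of either HFD group. Ndufv1 did not pass the test (0.28, adjusted p = 0.0534), although its 5 LowMg-HFD mice (88.5 to 108 FPKM) were all above the NormMg-HFD mice (71.0 to 85.8 FPKM). These 2 genes, Ndufv3 and Ndufv1, were the members without overlap on the higher side, against 3.2% of all entries. On the lower side they were Ndufa8 (-0.16, adjusted p = 0.0998) and Cox7a2l (-0.24, adjusted p = 0.0846), against 9.56% of all entries. With quantile normalization 11 members and 786 of all 8336 entries were called higher, in place of 2 and 465.

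Mg2+ on the LFD called no member. Between LowMg-LFD and NormMg-LFD mice limma called 0.0% of all entries higher and 0.0% lower, and 2 members (Atp5a1 and Ndufc1) and 547 entries had an unadjusted p under 0.05. The median log2 difference was 0.06 for the members and -0.06 for all entries. Without LowMg-LFD replicate 1 these were 0.02 and -0.03, and without NormMg-LFD replicate 4 they were 0.04 and -0.02. In the fit of all mice the median 95% interval of a member reached 0.19 to either side of its difference.

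Several subunits have more than 1 gene, of which 1 is expressed in most tissues and another in few. The c ring of ATP synthase is encoded by Atp5g1, Atp5g2 and Atp5g3, which yield the same mature protein. Most of the RNA came from Atp5g3, with 389 ± 23.7 FPKM (SD, n = 4) in NormMg-LFD mice compared with 20.5 ± 6.55 FPKM for Atp5g1 and 28.0 ± 7.57 FPKM for Atp5g2, and none of the 3 was called in any comparison by limma (Atp5g3 had an unadjusted p of 0.0337 for fat at low Mg2+). The widely expressed complex IV genes Cox6a1 (363 FPKM over all mice), Cox6b1 (320 FPKM), Cox4i1 (386 FPKM), Cox7b (220 FPKM) and Cox8a were all tested, whereas their relatives Cox6a2, Cox6b2, Cox4i2, Cox7b2 and Cox8c did not pass the filter. The sixth member under the filter was Atp5s, a coupling factor gene, at 3.02 to 6.04 FPKM.

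Cox4i2, known from lung and for its response to hypoxia, was 1.2 to 6.11 FPKM and overlapped between all groups. Cox6a2, the isoform of heart and skeletal muscle, was listed at 0 in 7 of 9 LFD mice and at 0.27 and 0.26 FPKM in the other two. It was 2.61, 1.84, 3.1, 2.87 and 3.14 FPKM in NormMg-HFD and 0.79, 0.80, 0.26, 0.78 and 0.79 FPKM in LowMg-HFD mice. The HFD groups did not overlap, and all mice outside NormMg-HFD were at 0.80 FPKM or less. No test of this gene is given, since it passed even a filter of 1 FPKM only through the group where it was high.

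Cox6a2 lies on the minus strand of chromosome 7 (128205435 to 128206387, GRCm38), inside the gene Itgad on the plus strand (128154376 to 128223816), and 70 of its 680 exon bases are also Itgad exon bases. Itgad encodes an integrin chain of macrophages. It was 8.77 to 18.6 FPKM in NormMg-HFD, 2.23 to 6.66 FPKM in LowMg-HFD and at most 1.71 FPKM in LFD mice, the same order of groups. Whether the counting used strand is not given in the sources used here, so that reads of the overlapping genes cannot be told apart. In all, 24 of the 82 members share exon bases with another protein-coding gene. The same limit applies to those on opposite strands. For a pair on the same strand, such as Ndufb9 with Gm49356, strand could not separate the shared bases either. The largest shares were 39% of the exon bases in Ndufb6 (with Smim27), 30% in Ndufa13 (with Tssk6), 19.7% in Uqcrc2 (with Pdzd9) and 19.5% in Ndufb9 (with Gm49356), and both Uqcrc2 and Ndufb9 were called lower in each comparison of fat. The summed level of 7 skeletal muscle markers was 4.77 to 26.9 FPKM in LFD mice. It was 12.6 to 17.7 FPKM in NormMg-HFD and 19.3 to 29.1 FPKM in LowMg-HFD mice, the reverse of the order of Cox6a2 in the HFD groups.

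The testis isoforms stood out in single mice. Cox8c was 42.5 FPKM, Cox7b2 16 FPKM and Cox6b2 57.5 FPKM in LowMg-HFD replicate 4, whereas the other mice of its group were at 0, at 0 and at 1.45 to 5.17 FPKM. NormMg-LFD replicates 4 and 5 had smaller values, with 9.16 and 6.16 FPKM for Cox8c and 13 and 11.4 FPKM for Cox6b2. The spermatid gene Prm1, a protamine that packs sperm DNA, was 696 FPKM in the first of these mice and 70.4 and 188 FPKM in the other two, and was chosen for display after its values were seen. LowMg-LFD replicate 1, the mouse with the highest members, had a sum of 149.9 FPKM over 4 spermatid genes, which was 2816 FPKM in LowMg-HFD replicate 4, and its part in that mouse was not tested. The testis cytochrome c gene Cyct was 8.98 FPKM in LowMg-HFD replicate 4.

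**Figure D4:**
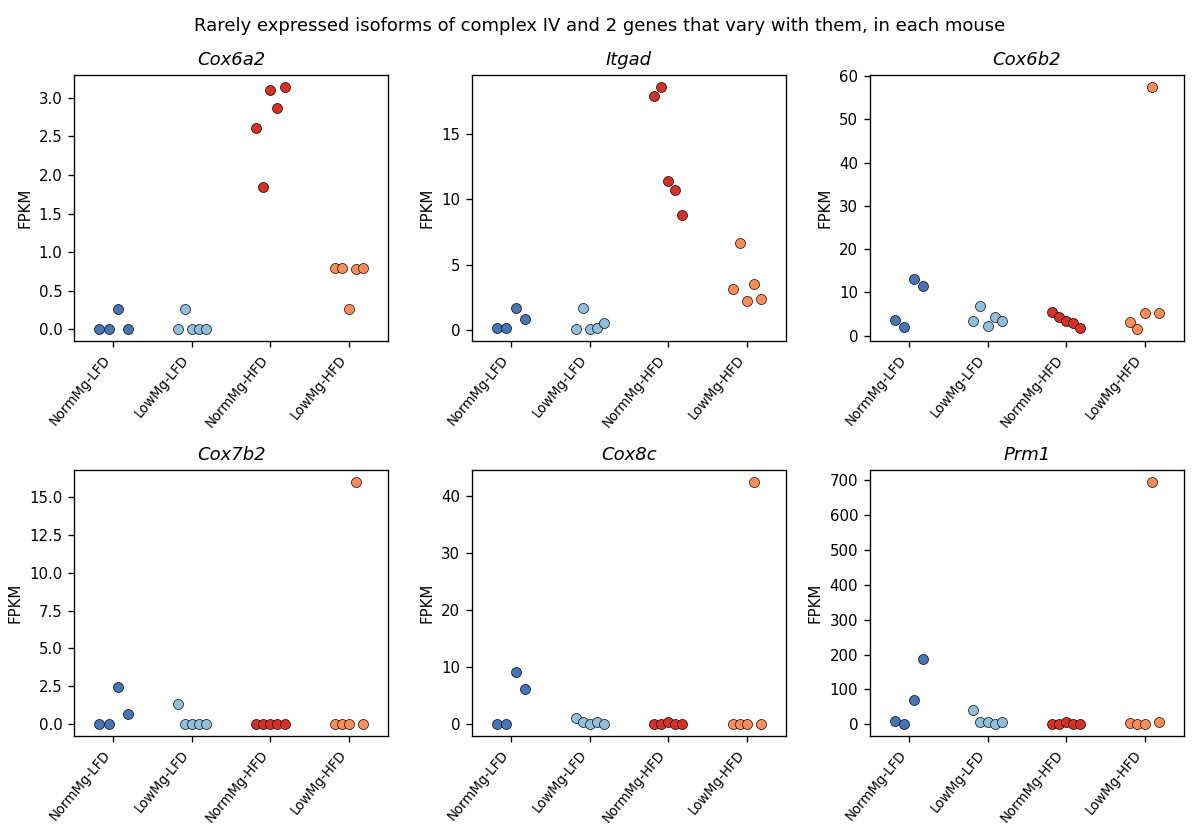
FPKM (y axis, linear) in each mouse (points) of the 4 groups (x axis) for 4 isoforms of complex IV below the filter, for Itgad, which overlaps Cox6a2, and for the spermatid gene Prm1. Cox6a2 and Itgad are highest in the 5 NormMg-HFD mice, and Cox6b2, Cox7b2, Cox8c and Prm1 are highest in the same LowMg-HFD mouse.

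Other tissue markers and depth varied between libraries as follows. Totals ranged from 12986441 to 13027028 reads per mouse with 86.12% to 90.41% mapped. LowMg-LFD replicate 1, the mouse with the highest members, had 16.52% of its reads at more than 1 position, against at most 15.21% in the other mice, and the part of this in its levels was not tested. The sum of 13 exocrine pancreas markers was 1904 FPKM in NormMg-LFD replicate 3 and at most 52.6 FPKM in the other mice, and that of 9 epididymis markers was 132 FPKM in LowMg-LFD replicate 4 and at most 4.08 FPKM elsewhere. The study left a LowMg-HFD library out of its analyses because of pancreatic RNA. The labels do not identify that library, and all 5 were used here, with pancreas marker sums of at most 44.6 FPKM. Without the mice with the highest pancreas and epididymis sums and LowMg-HFD replicate 4, a choice made after the data were seen, 23 members were called lower and 3 higher by fat at normal Mg2+, 26 lower by fat at low Mg2+ and 1 higher by Mg2+ on the HFD. Over all 8277 entries of that fit, 1019 were lower and 1825 higher by fat at normal Mg2+, 270 lower by fat at low Mg2+ and 468 higher by Mg2+ on the HFD.

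The mitochondrially encoded subunits of the same complexes were compared with the nuclear members. Of 13 listed genes 10 were tested, and mt-Co2, mt-Co3 and mt-Nd3 were listed at or near 0 in most mice, so no value of theirs is read. Another, mt-Atp6, was tested but varied from 0 to 672 FPKM between mice. It was called in no 2-group comparison, and without it, a choice made after the values were seen, the medians by fat given next were -0.60 at normal and -0.47 at low Mg2+. By fat at normal Mg2+ 7 of 10 were lower and none higher, with a median of -0.59. The complex I genes mt-Nd6 (-0.86, adjusted p = 5.77e-05), mt-Nd5 (-0.83) and mt-Nd4l (-0.67) were called under each of the 3 scalings too. Quantile normalization ended the calls of mt-Nd4 (-0.60) and mt-Atp8 (-0.59, complex V) and turned the direction of mt-Cytb (-0.70, complex III) and mt-Co1 (-0.44, complex IV). By fat at low Mg2+ 6 were lower (median -0.47), and by Mg2+ on the HFD mt-Nd4l (0.58), mt-Nd6 (0.52) and mt-Nd5 (0.51) were higher. The median at normal Mg2+ was 0.01 under quantile normalization, with 2 genes called higher and 3 lower, while it was -0.61 as TPM and -0.70 after centring. At low Mg2+ quantile normalization left 0 calls by limma. It gives every mouse the same set of values, so a shared fall of genes at the top of each library can be lost. The highest means of the 10 were those of mt-Co1 (11180 FPKM), mt-Atp8 (10690 FPKM) and mt-Cytb (5722 FPKM). Their lost calls or turned signs under that scaling do not decide the direction.

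Lists of like size, for the 2 ribosomes, are given beside the nuclear members. Of 73 tested genes of the mitochondrial ribosome, which translates the mitochondrially encoded subunits, 5 were lower and 2 higher by fat at normal Mg2+ with a median of 0.01, which became -0.09 after centring, when 14 were lower. The 6 largest were Mrps35 (-0.79), Mrps33 (0.48, not called after centring or quantile normalization), Mrps18b (0.48), Mrps15 (-0.46), Mrps30 (-0.43) and Mrpl38 (-0.41), and Mrps7 (0.34) was the 1 gene called by Mg2+ on the HFD. Of 80 genes of the cytosolic ribosome, 46 were higher and none lower by fat at normal Mg2+ (median 0.29) and 32 lower and none higher by Mg2+ on the HFD (median -0.28). By fat at low Mg2+ 1 was higher (Rps29, 0.30, not called after centring or quantile normalization) and none lower (median 0.12), and the interaction was called for 0 of the 80 in limma, with 11 at an unadjusted p under 0.05. These medians by fat at normal Mg2+ and by Mg2+ on the HFD kept their sign under each of the 3 scalings, but the calls by fat at normal Mg2+ became 24 higher after centring and 13 higher and 2 lower after quantile normalization, and those by Mg2+ became 18 and 4 lower. Rpl27 (0.84), Rps27a (0.65), Rpl37 (0.64), Rpl22l1 (0.60), Rpl39 (0.59) and Rps15a (0.54) led the calls by fat at normal Mg2+, and Rps27a (-0.49), Rpl36a (-0.48), Rpl13 (-0.44), Rps16 (-0.42), Rps3 (-0.38) and Rps6 (-0.38) those by Mg2+ on the HFD, of which Rps27a and Rps3 were called under every scaling. The lists differ in counts and medians, and no test between lists was run.

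**Figure D5:**
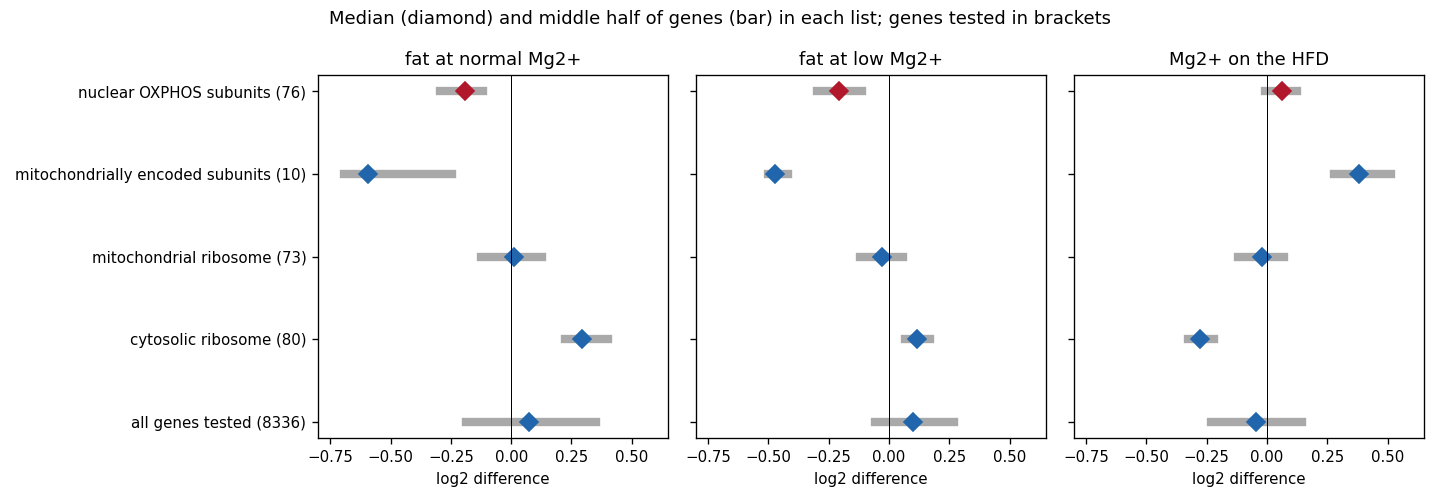
Median log2 difference (diamond) and interquartile range of the genes (bar) in 5 lists of genes (rows) for 3 comparisons (panels), x axis on the log2 scale. In both fat panels the nuclear subunits (76 genes, medians -0.19 and -0.21) and the mitochondrially encoded subunits (10 genes, medians -0.59 and -0.47) lie left of 0, and the cytosolic ribosome (80 genes) lies right of it.

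Of 13 complex I assembly factors 10 were tested. Ecsit (-0.45, adjusted p = 0.00137) and the methyltransferase gene Ndufaf7 (-0.47) fell by fat at normal Mg2+, and Ndufaf3 (0.61, adjusted p = 0.0219) and Ecsit (0.29) rose by Mg2+ on the HFD. Of 24 tested assembly factors of complexes II to V, 3 for complex IV were lower by fat at normal Mg2+, namely Cox18 (-0.54), Cox20 (-0.43) and Surf1 (-0.37). Sdhaf4 (0.41) and Cox16 (0.34) were called higher, but lost this call under centring and quantile normalization. Atpaf2 (0.33), which assembles the F1 part, was higher by Mg2+ on the HFD. Ndufab1, the mitochondrial acyl carrier protein and a complex I subunit outside the symbol rule, fell by 0.55 by fat at normal and by 0.69 at low Mg2+. Ndufa4l2, a relative of Ndufa4, was called higher by fat at low Mg2+ (0.58). It lost this call in limma after quantile normalization (0.43, adjusted p = 0.0535). Of the isoforms that the rule left out, Cox8b was tested and not called in any comparison by limma, with 0 comparisons at an unadjusted p under 0.05, and Cox7a1 was under the filter.

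Of 16 genes for electron carriers and ubiquinone synthesis 11 were tested. The ubiquinone synthesis genes Coq8a (-0.76), Coq8b (-0.48) and Coq7 (-0.34) were lower by fat at normal Mg2+, and Coq10b (0.48) and Etfdh (0.28), which passes electrons from fatty acid oxidation to ubiquinone, were higher. Etfdh was not called under any of the 3 scalings. None was called by Mg2+ on the HFD in limma, where 2 had an unadjusted p under 0.05.

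Of 19 regulators of mitochondrial gene expression 10 were tested, and the coactivator genes Ppargc1a and Ppargc1b and Nrf1 itself did not pass the filter. Nrip1, a corepressor (-0.65), and Mterf3 (-0.52), a regulator of mitochondrial transcription, were lower by fat at normal Mg2+. Esrra, an oestrogen-related receptor, was higher (0.29, adjusted p = 0.0460) and lower by Mg2+ on the HFD (-0.32, adjusted p = 0.0424), and was called under none of the 3 other scalings.

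The largest differences around the chain were in uncouplers and carriers, of which 9 of 10 were tested. Ucp2, an uncoupling protein gene that macrophages also express, was higher by fat at normal Mg2+ (2.10, 4.29-fold, adjusted p = 4.79e-06) and lower by Mg2+ on the HFD (-1.11, adjusted p = 0.00489). Atpif1, the inhibitor of ATP synthase, was higher (0.95) and lower (-0.58) in the same comparisons. Vdac2, a pore of the outer membrane (0.49 and -0.30), and the ADP/ATP carrier Slc25a5 (0.36 and -0.33) were called likewise, but under centring or quantile normalization only the rise of Vdac2 by fat was called. By fat at low Mg2+, Ucp2 (1.17, adjusted p = 0.00353) and Atpif1 (0.72, adjusted p = 0.00592) were also called higher in limma. The ADP/ATP carrier Slc25a4 fell by 0.35 by fat at normal Mg2+, and Ucp3 was higher by Mg2+ on the HFD (0.84, adjusted p = 0.0150). Ucp1, the uncoupling protein of brown adipocytes, averaged 0.341 FPKM and was not tested, and the sum of 6 brown adipocyte markers was 20.7 to 69.5 FPKM over all mice.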

How the data were processed

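RNA-seq of eWAT from 19 mice was analysed. Per the submitters' processing notes the authors used HISAT, Bowtie2 and RSEM 1.2.31 on GRCm38 (mm10), and the deposited table holds FPKM per gene and mouse, without counts, so that the depth behind each gene is unknown. One entry with a cell that was not a number was left out, and 26 symbols turned into dates by a spreadsheet were restored. The percent of mapped reads was also read as deposited. Entries were tested where a group had a mean over 8 FPKM and at least 4 mice above 8 FPKM, on log2(FPKM + 1), a scale that understates the change of low genes, with limma 3.58.1 (R 4.3.3; intensity trend, 4 group means, all 19 mice), with Benjamini-Hochberg adjustment over all 8336 entries and two-sided tests. The procedure was tested on simulated data. The members and lists were chosen with earlier results of these data known. Genes were named by rule: up to 5 called members with the largest difference per complex and comparison, called members against their complex, the highest and lowest level per complex, interaction calls, members under the filter, isoform pairs, and up to 6 called genes of each other list. Gene positions are from GENCODE M21 and promoters from RefSeq. Alternatives changed the pseudocount, filter, scaling, mice, variance model or pairing. Some members enter the counts but are not reported by name here.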

Additional observations from a re-analysis of the deposited data

Results flagged for a closer look

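A single mouse stood far from the rest of its group in 17 of 112 group readings, by a gap larger than Dixon's 95% limit. The readings were of 22 genes and 6 means of members, in 4 groups each. For normal values about 1 of 20 groups exceeds this limit by chance, but the readings overlap and some are small values beside zeros. The genes were also chosen with results of these data known, so 17 of 112 is not read against chance. LowMg-LFD replicate 1 was highest in the mean log2(FPKM + 1) of all members (7.07), complex III (7.38) and complex IV (8.01), in Ndufv1 (144 FPKM) and in Sdha (217 FPKM). In LowMg-HFD mice, replicate 3 was highest for complex II (7.06), and in NormMg-LFD mice replicate 2 was highest for Ndufa10 (168 FPKM) and replicate 4 lowest for Cox8a (518 FPKM). LowMg-LFD replicate 4 was highest for Atp5sl (14.9 FPKM).

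Among the isoforms under the filter, LowMg-HFD replicate 4 was highest for Cox6b2 (57.5 FPKM), Cox7b2 (16 FPKM) and Cox8c (42.5 FPKM), the mouse that also held the most spermatid RNA. Small values beside zeros were reached in Cox6a2 (0.27 FPKM in NormMg-LFD replicate 4 and 0.26 FPKM in LowMg-LFD replicate 2), Cox7b2 (1.34 FPKM in LowMg-LFD replicate 1) and Cox8c (0.38 FPKM in NormMg-HFD replicate 3), and Cox6a2 was lowest in LowMg-HFD replicate 3 (0.26 FPKM). No cause was tested.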

How the results depend on the processing

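The median difference of the members kept its sign in every setting for each of the 4 comparisons of 2 groups, and no called member changed sign. Leaving out 1 mouse at a time gave 25 to 36 called members for fat at normal Mg2+ (34 with all mice), 17 to 30 for fat at low Mg2+ (26), 1 to 4 for Mg2+ on the HFD (2), 0 for Mg2+ on the LFD and 0 to 1 for the interaction (Ndufv3, without NormMg-HFD replicate 5). The members' medians then ranged from -0.23 to -0.17, -0.22 to -0.17, 0.04 to 0.10 and 0.02 to 0.08 for the first 4 of these. Of the calls, 18 of 34, 13 of 26 and 1 of 2 held in all 30 settings for fat at normal Mg2+, fat at low Mg2+ and Mg2+ on the HFD. Quantile normalization gave 57 called members for fat at normal Mg2+ (1696 of all entries lower and 1499 higher) and 11 for Mg2+ on the HFD. Its medians were -0.36, -0.28 and 0.16 for fat at normal Mg2+, fat at low Mg2+ and Mg2+ on the HFD. Median centring gave 41 called members for fat at low Mg2+ and medians of -0.29 and -0.32 for fat at normal and low Mg2+ and of 0.13 for Mg2+ on the LFD; both scalings set the median of all genes near 0. Fitting only the 2 groups compared gave 13 for fat at low and 36 for fat at normal Mg2+, and the cause was not tested. A member count printed in this section without a count over all entries does not show a change particular to the members. With a filter of 1 FPKM the interaction count was 1 (Cox6a2), which is not read, because this gene passed that filter only through the NormMg-HFD mice. For Mg2+ on the HFD, 1 member was called without an intensity trend, without the 3 mice with the highest sums of spermatid, pancreas or epididymis markers (a choice made after the data were seen), and in 18 mice, without LowMg-HFD replicate 4, with a log2 filter of 3. With a replicate block, which used the numbers in the labels, 1 member was called for Mg2+ on the HFD, 31 for fat at normal and 24 for fat at low Mg2+. These numbers do not pair the mice: only 5 of 27 same-numbered pairs had deviations correlated over 0.1 (median 0.003), and 3 of 19 mice correlated best with their own number. FPKM without counts give no counting error, and the median 95% interval of a member reached 0.18 to 0.19 on the log2 scale to either side of its difference.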
